A study of Arabidopsis thaliana with 12 samples.

Results

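Leaves of Arabidopsis thaliana, the thale cress, were compared after heat alone and without treatment. The comparison takes the 3 heat libraries against the 3 control libraries, 6 of the 12 libraries of the study, and covers the 19309 genes whose normalised read count averaged at least 10 over all 12, of 32833 loci listed. All plants were wild-type Col-0 aged 30 days, and had grown at 23 °C under a day length of 12 h and a light intensity of 50 µmol m-2 s-1. Heat plants were kept at 42 °C for 7 h and control plants were left untreated. The other libraries came from plants under 600 µmol m-2 s-1 of light (high light, 3 libraries) and under both stresses together, also for 7 h. High light is used below only to ask where heat differs from the other single stress. The comparison asks which leaf transcripts change when temperature alone is raised. Nothing in the labels says whether the 3 libraries of a group stem from separate plants. The p-values then rest on the spread among libraries alone, and this spread may be technical.

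When plant cells are heated, proteins unfold, and heat shock factors, which are released from chaperones that hold them inactive, bind short repeated elements in front of heat shock protein genes. The proteins made are chaperones: small heat shock proteins bind unfolded proteins, HSP101 pulls aggregates apart, and HSP70 and HSP90 refold clients with the help of co-chaperones. Separate systems watch over the endoplasmic reticulum, mitochondria and plastids. In leaves, sustained heat is also known to limit photosynthesis, cell division and salicylic acid defence.

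Levels are normalised read counts, given for libraries 1, 2 and 3 of a group in that order. Changes are differences on the log2(normalised count + 1) scale ± SE, heat minus control, with the SE pooled over all 12 libraries. This scale understates changes of genes with few reads, and for a gene at or near 0 in control the size of the change depends on the 1 that was added. A gene is said to rise or fall where limma gave a Benjamini-Hochberg adjusted p under 0.05 over all genes tested. The numbers of libraries are labels and carry no order.

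Libraries held 32799975 to 34206515 reads in control and 34688170 to 36938786 in heat. Across the genes tested, control libraries correlated at Pearson's r = 0.986 to 0.990 and heat libraries at 0.936 to 0.973, a correlation over genes, which are not independent replicates. The SD over the 3 libraries had a median of 0.155 in control and 0.325 in heat on the log2 scale. A range over 1 was found for 4869 genes (25.2%) in heat and 1176 genes (6.09%) in control. Genes of the small heat shock protein, HSP100, HSP70 and HSP90 lists took 0.583%, 0.658% and 0.597% of reads in control and 2.31%, 5.30% and 11.5% in heat, so heat library 1 held the smallest and heat library 3 the largest share. Markers of mesophyll, the photosynthetic tissue of the leaf, summed to 547903 to 707948 in control and 284030 to 401174 in heat over 4 genes. Of these markers, RBCS1A, LHCB2.1 and LHCB3 also belong to the Rubisco and antenna lists below. Their part in the results was not tested. The 4 flower markers summed to at most 29.6 and the 5 seed markers to at most 6.68 in any of the 6 libraries, and OLEO1 (seed) and EXPA7 (root) were listed at 0 in all 6. The 5 root markers summed to 1677 to 2349 in control and 757 to 1293 in heat, mostly from PYK10 and SCR. In bulk leaves, fewer cells of a type and less RNA per cell cannot be told apart.

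Heat was followed by changes in both directions. Of 19309 genes, 4745 rose (24.6%) and 4783 fell (24.8%), together 49.3%, with 2702 and 2919 of them changed by at least 1 on the log2 scale. Against high light, 24.5% of all genes were higher and 24.9% lower. Every list count below is to be read beside these shares. The balance of the directions depends on the scaling: upper-quartile scaling gave 4117 raised and 5564 lowered genes, and library totals gave 3871 and 4807. The heat and control libraries did not overlap for 11740 genes (60.8%). The 3 heat libraries did not share 1 order of strength over all of these genes. Over the 4745 raised genes the median difference from the control mean was 0.94, 1.26 and 1.12 in heat libraries 1, 2 and 3. Heat 2 held the highest value for 51.1% of them and heat 3 for 29.0%, and heat 1 held the lowest for 58.9%. Over the 4783 lowered genes the medians were -0.99, -1.37 and -1.17, and heat 2 held the lowest value for 49.7%. Among the 48 genes raised by more than 6, the medians were 6.38, 7.93 and 8.13, and heat 3 was the highest for 28 of them. These per-library values describe the genes that the test picked and are no test of their own.

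**Figure D1:**
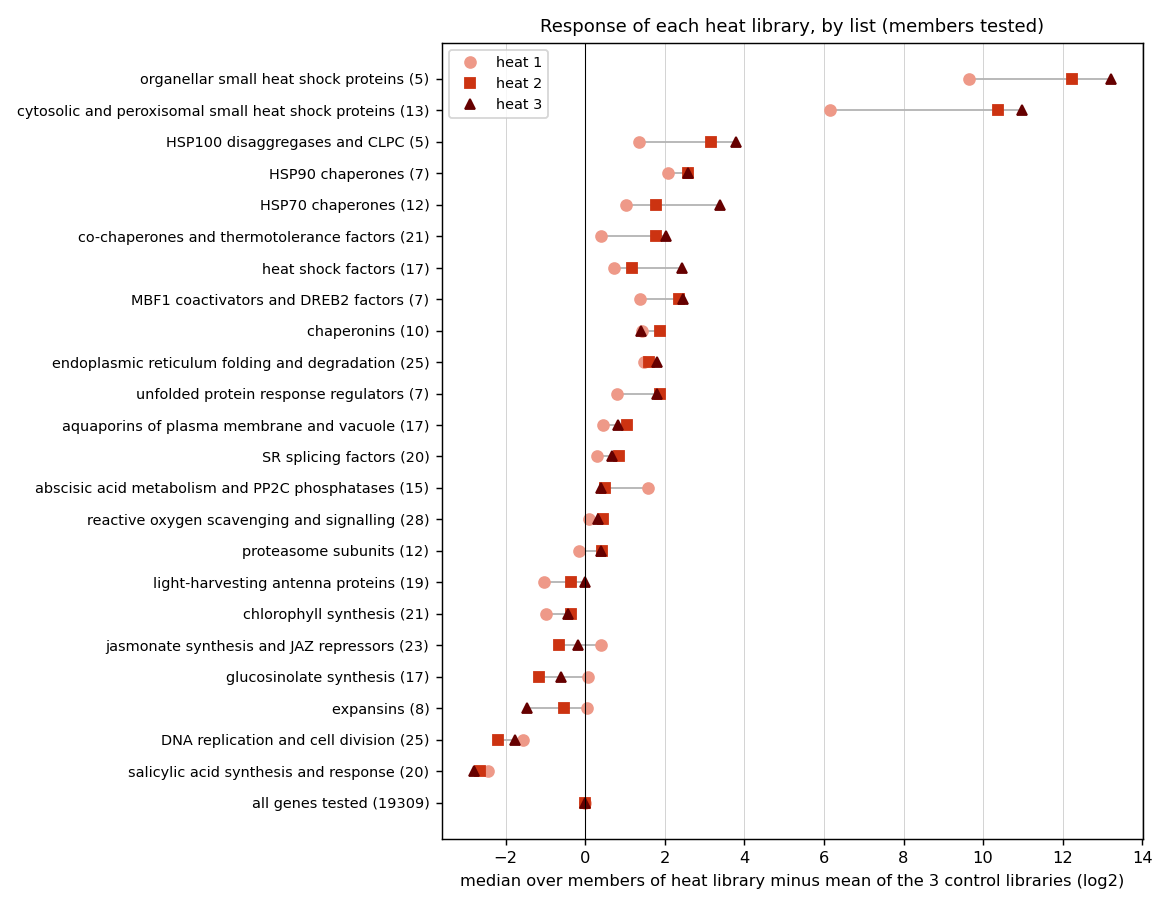
Median over the members of each list of the difference between 1 heat library and the mean of the 3 control libraries, on the log2(normalised count + 1) scale (x axis), by list with the number of members tested in brackets (y axis). Circles, squares and triangles are heat libraries 1, 2 and 3. The small heat shock protein, HSP100 and HSP70 lists are spread widely with heat 1 lowest, the endoplasmic reticulum list lies close together at 1.47, 1.60 and 1.80, and the abscisic acid list has heat 1 highest.

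Small heat shock proteins, which hold unfolded proteins in solution, had the largest median rises of the lists examined. In the cytosol and peroxisome, 12 of 13 members tested rose, with a median change of 9.71, against -0.00079 over all genes tested. The 3 heat libraries gave list medians of 6.15, 10.37 and 10.97. HSP18.2 (AT5G59720) stood at 42.2, 124 and 51.2 in control and 76354, 224641 and 301579 in heat and rose by 11.37 ± 0.59 (adjusted p = 2.84e-07). AT1G53540, annotated as an HSP20-like chaperone, was at 8.44, 121 and 2.56 in control and 8139, 103942 and 303845 in heat and rose by 11.95 ± 1.38 (adjusted p = 3.66e-05). Every heat library lay above every control library for both, and heat libraries 1 and 3 lay further apart for AT1G53540 than for HSP18.2. HSP17.4 (AT3G46230), at 0, 17.3 and 0 in control and 1812, 11040.2 and 23155 in heat, rose by 11.52 ± 1.27 (adjusted p = 2.73e-05). HSP17.6II (AT5G12020) of class II was at 2.53, 44.1 and 3.42 in control and 3391, 23883 and 71358 in heat and rose by 10.98 ± 1.18 (adjusted p = 2.3e-05). HSP17.6A (AT5G12030) was at 1.69, 56.8 and 1.71 in control and 2497, 20903 and 57668 in heat and rose by 10.91 ± 1.39 (adjusted p = 7.03e-05). In both genes the controls lay far below heat 1, and heat 3 was the highest library. AT1G59860, a further HSP20-like gene, was at 34.6, 93.8 and 29 in control and 411, 11887 and 93306 in heat and rose by 7.37 ± 1.45 (adjusted p = 0.00129). The HSP20-like gene AT5G47600 was at 0.844, 0.788 and 3.42 in control and 132, 130.2 and 141 in heat, with the 3 heat libraries close together, and rose by 5.79 ± 0.58 (adjusted p = 1.5e-05). AT4G21870, at 28.7, 66.2 and 49.5 in control and 47.1, 48.5 and 113 in heat, was the member that did not pass, with a change of 0.47 ± 0.46 (adjusted p = 0.418). HSP18.2, AT1G53540, HSP17.4, HSP17.6II, HSP17.6A and AT1G59860 changed by 11.96, 13.44, 12.57, 12.18, 12.18 and 9.48 without heat 1. AT1G53540, HSP17.4, HSP17.6II, HSP17.6A and AT1G59860 changed by 10.83, 10.73, 9.98, 9.91 and 5.57 without heat 3. HSP17.4, HSP17.6II and HSP17.6A changed by 10.82, 10.31 and 10.17 without control 1. AT1G53540, HSP17.4, HSP17.6II and HSP17.6A changed by 13.42, 12.92, 12.15 and 12.39 without control 2. AT1G53540, HSP17.4 and HSP17.6A changed by 10.87, 10.82 and 10.18 without control 3.

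Small heat shock proteins of organelles rose without exception, 5 of 5, with a median of 11.7. HSP22.0 (AT4G10250), found in the endoplasmic reticulum, was at 1.69, 58.3 and 2.56 in control and 35017, 120796 and 174780.1 in heat and rose by 13.41 ± 1.19 (adjusted p = 7.56e-06). HSP21 (AT4G27670), the plastid member, went from 1.69, 11 and 0 to 7186, 54293 and 39924, by 12.94 ± 1.07 (adjusted p = 5.18e-06). HSP23.6-MITO (AT4G25200), the mitochondrial member, was at 3.38, 63.1 and 2.56 in control and 8069, 47775 and 95218 in heat and rose by 11.7 ± 1.24 (adjusted p = 2.16e-05). Heat 1 was the lowest heat library for all 5 members, and heat 3 the highest for 4. Control 2 was the highest control library for 14 of the 18 small heat shock proteins of both lists, whose counts summed to 1810, 2208 and 1818 in control libraries 1, 2 and 3. Even so, the lowest heat library summed to 210829. Against high light, HSP22.0 was higher by 13.53 ± 1.19 (adjusted p = 6.4e-06) and HSP21 by 13.36 ± 1.07 (adjusted p = 3.73e-06). The difference of HSP22.0 from high light was 14.21 without heat 1, 12.47 without high light 1 and 14.81 without high light 3. The difference of HSP21 from high light was 14.26 without heat 1, 12.74 without high light 1, 12.74 without high light 2 and 14.61 without high light 3. HSP22.0, HSP21 and HSP23.6-MITO changed by 14.1, 13.83 and 12.72 without heat 1. HSP23.6-MITO changed by 10.94 without heat 3. HSP22.0 and HSP23.6-MITO changed by 12.6 and 11.1 without control 1. HSP22.0, HSP21 and HSP23.6-MITO changed by 14.83, 13.89 and 13.04 without control 2. HSP22.0, HSP21 and HSP23.6-MITO changed by 12.81, 12.1 and 10.95 without control 3.

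Promoters of raised chaperone and heat shock factor genes are printed below, to show the heat shock element where it was found. An element is a row of GAA units in alternating orientation, so that GAA and its reverse complement TTC take turns. A 3-unit element was searched as GAA, TTC and GAA or as TTC, GAA and TTC, with 2 bases of any kind between neighbouring units. The forms are each other's reverse complement and so cover both strands. Each sequence is the 250 bases before the gene start on the gene's own strand, from the RefSeq annotation of TAIR10.1, 5′ to 3′, with matches in capitals. The windows are chr3:16984868-16985117 (minus strand) for HSP17.4, chr1:19980049-19980298 (plus strand) for AT1G53540, chr2:11135374-11135623 (plus strand) for HSFA2, chr3:19264891-19265140 (plus strand) for HSFA7A, chr3:23398986-23399235 (plus strand) for HSFA7B, chr2:19370479-19370728 (minus strand) for GOLS1 and chr4:6370088-6370337 (plus strand) for HSP22.0. HSFA2, HSFA7A and HSFA7B code for heat shock factors, GOLS1 for a galactinol synthase, and HSP22.0 is the gene with the largest rise and has no match.
HSP17.4: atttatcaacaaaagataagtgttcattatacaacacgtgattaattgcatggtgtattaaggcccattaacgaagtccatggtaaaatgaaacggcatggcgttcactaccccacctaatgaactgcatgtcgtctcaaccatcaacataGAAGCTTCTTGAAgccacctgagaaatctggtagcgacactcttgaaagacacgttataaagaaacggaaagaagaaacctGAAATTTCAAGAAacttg
AT1G53540: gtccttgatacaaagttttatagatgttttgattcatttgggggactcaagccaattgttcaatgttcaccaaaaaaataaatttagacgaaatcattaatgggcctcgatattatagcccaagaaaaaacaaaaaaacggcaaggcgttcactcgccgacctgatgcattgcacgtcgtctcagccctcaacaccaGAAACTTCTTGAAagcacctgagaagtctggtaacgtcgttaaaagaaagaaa
HSFA2: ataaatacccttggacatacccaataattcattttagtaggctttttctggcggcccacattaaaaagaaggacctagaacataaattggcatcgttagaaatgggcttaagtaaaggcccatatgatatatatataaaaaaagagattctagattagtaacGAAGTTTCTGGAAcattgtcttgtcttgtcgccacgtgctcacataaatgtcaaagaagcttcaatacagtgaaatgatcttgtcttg
HSFA7A: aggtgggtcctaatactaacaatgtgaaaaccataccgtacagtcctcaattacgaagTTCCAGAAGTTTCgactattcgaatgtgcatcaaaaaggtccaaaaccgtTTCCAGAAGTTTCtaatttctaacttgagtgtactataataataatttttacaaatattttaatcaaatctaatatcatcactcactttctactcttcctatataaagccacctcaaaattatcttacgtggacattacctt
HSFA7B: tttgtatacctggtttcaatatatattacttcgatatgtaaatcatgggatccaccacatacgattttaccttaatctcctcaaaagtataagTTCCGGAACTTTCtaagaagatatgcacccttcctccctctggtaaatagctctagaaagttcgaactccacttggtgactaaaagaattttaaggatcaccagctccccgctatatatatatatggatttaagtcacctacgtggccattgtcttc
GOLS1: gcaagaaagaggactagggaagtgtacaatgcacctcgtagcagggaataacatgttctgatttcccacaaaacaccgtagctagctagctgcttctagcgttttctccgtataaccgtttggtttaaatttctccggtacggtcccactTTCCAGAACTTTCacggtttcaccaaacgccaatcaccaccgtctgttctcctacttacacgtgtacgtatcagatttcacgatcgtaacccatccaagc
HSP22.0: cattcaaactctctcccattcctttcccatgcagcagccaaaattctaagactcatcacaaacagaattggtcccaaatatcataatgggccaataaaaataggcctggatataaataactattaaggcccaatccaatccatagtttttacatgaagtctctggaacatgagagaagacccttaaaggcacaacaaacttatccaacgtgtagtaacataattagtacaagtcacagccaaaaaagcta
In HSP17.4 the matches began 99 and 18 bases before the start, in AT1G53540 53, in HSFA2 88, in HSFA7A 192 and 142, in HSFA7B 157 and in GOLS1 100 bases before it. A 3-unit element stood in 86 of 19190 promoters read (0.448%). It stood in 34 of 4689 promoters of raised genes (0.725%) and 13 of 4779 of lowered genes (0.272%). By size of the rise the share was 0.392% under 1, 0.535% from 1 to 3, 2.79% from 3 to 6 (10 of 359) and 8.89% over 6 (4 of 45). With 2 units, GAA and TTC in either order, the shares were 15.8% of all promoters and 28.9% of those with a rise over 6. A match is a description of these letters, and 41 of the 45 genes with the largest rises had no 3-unit match in this window.

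**Figure D2:**
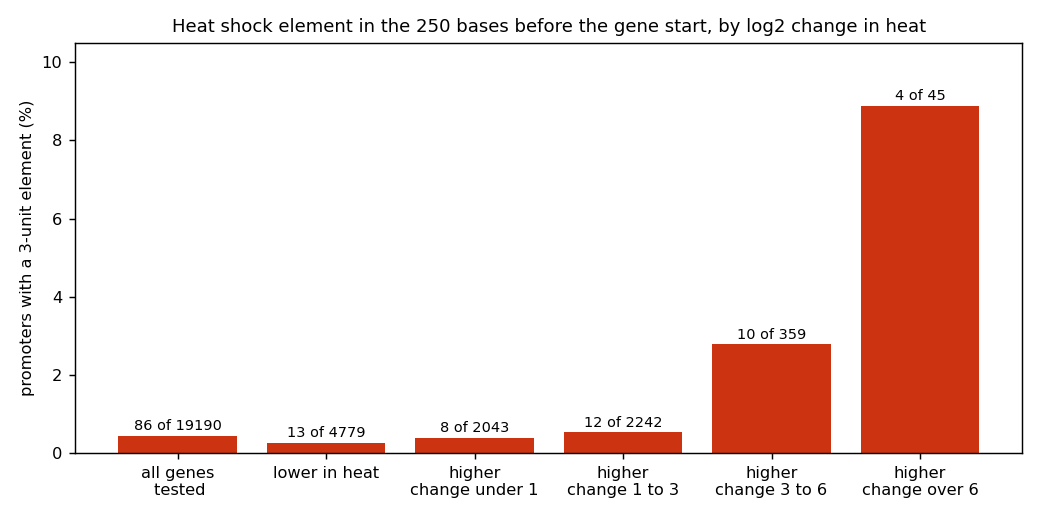
Share of promoters with a 3-unit heat shock element in the 250 bases before the gene start (y axis, percent), for all genes tested, lowered genes and raised genes by log2 change (x axis), with counts above the bars. The bars run from 0.272% in lowered genes to 8.89% in genes raised by more than 6, the last from 4 of 45 promoters.

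HSP101 and its relatives, which pull protein aggregates apart, rose in the cytosol, plastid and mitochondrion, 4 of 5 members with CLPC proteins included. HSP101 (AT1G74310) was at 269, 334 and 243 in control and 2325, 36624 and 231174 in heat and rose by 6.59 ± 1.28 (adjusted p = 0.00116). Heat 1 lay above the controls and far below heat 2 and heat 3. CLPB3 (AT5G15450), the plastid form, was at 2331, 2167 and 2283 in control and 5774, 20165 and 53231 in heat and rose by 3.02 ± 0.61 (adjusted p = 0.00152). CLPB4 (AT2G25140), the mitochondrial form, rose by 2.99 ± 0.5 (adjusted p = 0.000439). The order of the 3 heat libraries was the same in these 3 genes. CLPC1 (AT5G50920), a plastid protein of the import and protease machinery, was at 48988, 40934 and 48637 in control and 44992, 62813 and 49501 in heat and did not pass, at 0.17 ± 0.2 (adjusted p = 0.491). HSP101, CLPB3 and CLPB4 changed by 8.36, 3.86 and 3.64 without heat 1. HSP101 and CLPB3 changed by 5.04 and 2.26 without heat 3.

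Among HSP70 chaperones, 10 of 12 members tested rose, with a median change of 1.8. HSP70 (AT3G12580), a cytosolic form, was at 74.3, 211 and 81.1 in control and 19256, 102823 and 323446 in heat and rose by 9.62 ± 0.93 (adjusted p = 1.24e-05). HSP70B (AT1G16030) was at 177, 333 and 189.6 in control and 561, 38834 and 360302 in heat and rose by 6.47 ± 1.58 (adjusted p = 0.00489). Heat 1 lay above the highest control library, and heat 2 and heat 3 far above it. HSC70-1 (AT5G02500), the form that is present without stress, was at 36091, 40467 and 39862 in control and 45305, 122339 and 238033 in heat and rose by 1.5 ± 0.46 (adjusted p = 0.0167). AT3G09440, annotated as an HSP70, was at 6614, 8107 and 7755 in control and 4384, 25377 and 158545 in heat and did not pass, at 1.8 ± 0.9 (adjusted p = 0.114), and heat 1 lay below the controls. CPHSC70-1 (AT4G24280) of the plastid rose by 1.51 ± 0.22 (adjusted p = 0.00016) and MTHSC70-2 (AT5G09590) of the mitochondrion by 3.68 ± 0.59 (adjusted p = 0.000323). All 12 members were lowest in heat 1 among the heat libraries, and 10 were highest in heat 3. Members of this family are alike in sequence, and reads of close copies may be shared. HSP70, HSP70B, HSC70-1 and MTHSC70-2 changed by 10.7, 9.04, 2.14 and 4.43 without heat 1. HSP70, HSP70B and MTHSC70-2 changed by 8.67, 4.38 and 2.89 without heat 3. HSC70-1 did not pass without heat 2, heat 3 or control 1 (adjusted p = 0.0518 to 0.0602). AT3G09440 passed without heat 1, at 3.09 (adjusted p = 0.00145).

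HSP90 chaperones, which complete the folding of receptors and kinases, rose in 5 of 7 cases. HSP90.1 (AT5G52640), the inducible cytosolic form, was at 89.5, 168 and 92.2 in control and 10767, 68112 and 204458 in heat and rose by 8.88 ± 1.04 (adjusted p = 4.1e-05). The forms of the organelles were more even. CR88 (AT2G04030) of the plastid was at 7974, 9168 and 7365 in control and 54138, 69098 and 40018 in heat and rose by 2.71 ± 0.25 (adjusted p = 8.4e-06), and SHD (AT4G24190) of the endoplasmic reticulum was at 10726, 10078 and 10301 in control and 44135, 62239 and 60955 in heat and rose by 2.41 ± 0.29 (adjusted p = 5.08e-05). HSP89.1 (AT3G07770) of the mitochondrion rose by 2.81 ± 0.34 (adjusted p = 4.79e-05). Heat minus high light was -0.19 ± 0.25 (adjusted p = 0.548) for CR88 and 2.23 ± 0.29 (adjusted p = 8.39e-05) for SHD. HSP81-3 (AT5G56010), cytosolic, was at 6167, 6919.7 and 6287 in control and 5224, 15151 and 86746 in heat and did not pass, at 1.56 ± 0.72 (adjusted p = 0.0887). HSP90.1 changed by 10.03 without heat 1. HSP90.1 changed by 7.91 without heat 3. HSP81-3 passed without heat 1, at 2.49 (adjusted p = 0.00321).

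**Figure D3:**
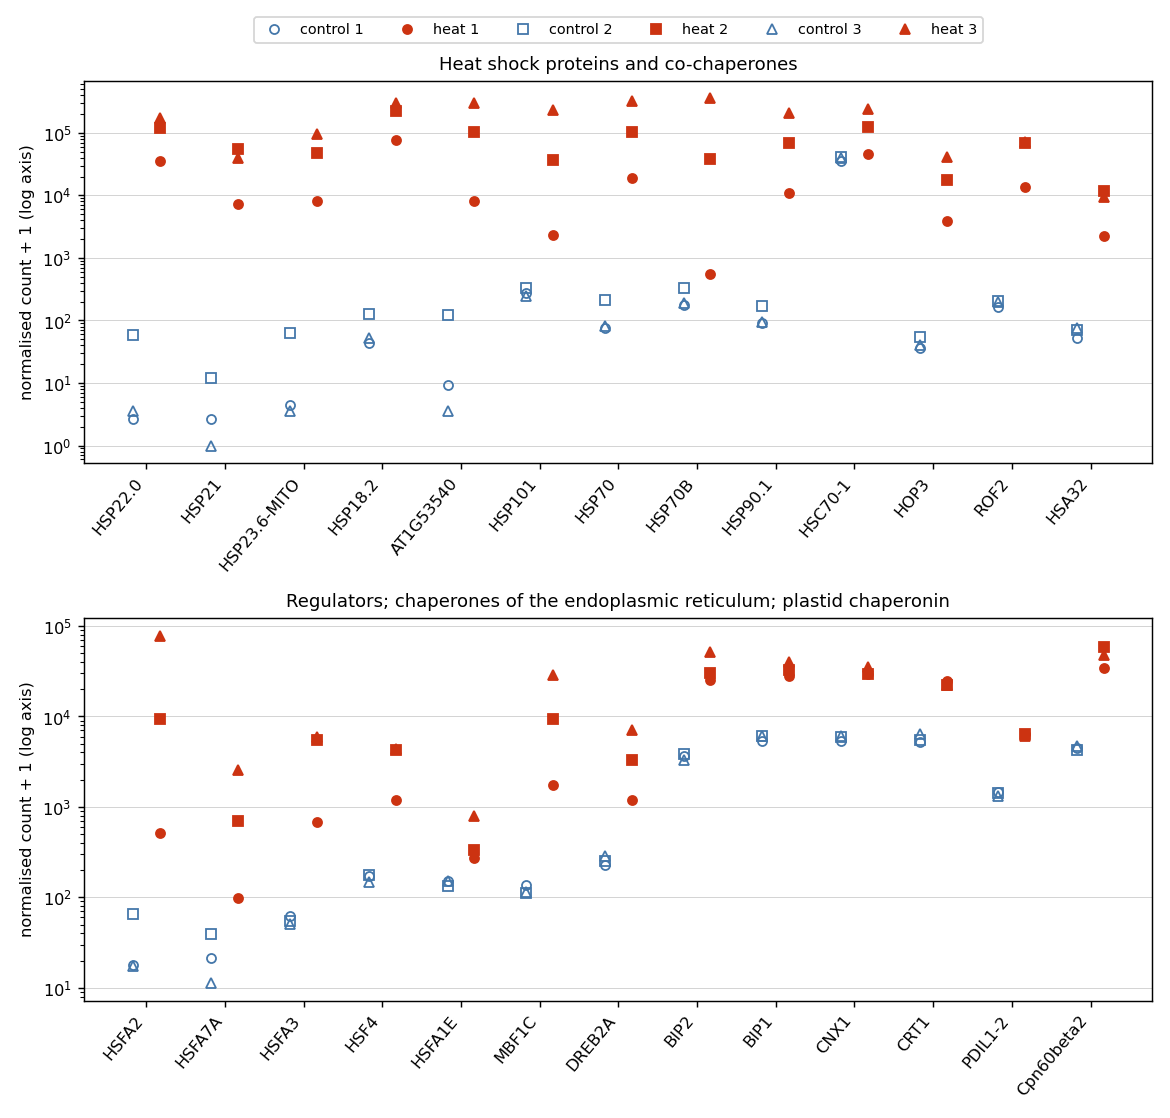
Normalised counts + 1 (y axis, log scale) of chaperones, co-chaperones and regulators (x axis) in each library. Open blue symbols are control and filled red symbols heat, with circles, squares and triangles for libraries 1, 2 and 3. In the upper panel heat 1 is the lowest heat library for every gene, while BIP1, CNX1, CRT1 and PDIL1-2 in the lower panel have the 3 heat libraries close together.

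Co-chaperones and factors named for thermotolerance gave 14 raised and 3 lowered of 21, with list medians of 0.39, 1.78 and 2.03 in the 3 heat libraries. HOP3 (AT4G12400), which joins HSP70 to HSP90, was at 35.5, 54.4 and 40.1 in control and 3909.5, 17469 and 41493 in heat and rose by 8.34 ± 0.92 (adjusted p = 2.77e-05). ROF2 (AT5G48570), a peptidyl-prolyl isomerase that works with HSP90, was at 160.4, 205 and 196 in control and 13549, 67824 and 72594 in heat and rose by 7.76 ± 0.82 (adjusted p = 2.14e-05). HSA32 (AT4G21320), needed for long acquired thermotolerance, was at 50.7, 68.6 and 74.3 in control and 2239, 11639 and 9381 in heat and rose by 6.6 ± 0.52 (adjusted p = 4.02e-06). Each of these 3 genes had its groups apart, with heat 1 the lowest heat library. BAG6 (AT2G46240), a BAG domain protein, was at 413, 584 and 644 in control and 985, 9875 and 60864 in heat and rose by 3.96 ± 1.09 (adjusted p = 0.0094). HSBP (AT4G15802), which binds heat shock factors and limits them, was at 1578, 1474 and 1705 in control and 1347, 1278 and 1274 in heat and did not pass, at -0.28 ± 0.14 (adjusted p = 0.104). HOP3, ROF2, HSA32 and BAG6 changed by 9.27, 8.55, 7.34 and 5.51 without heat 1. HOP3 and BAG6 changed by 7.57 and 2.53 without heat 3.

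Chaperonins, the barrel chaperones of plastids and mitochondria, rose in 8 of 10 cases with a median of 1.57, and 1 fell. Cpn60beta2 (AT3G13470), a plastid subunit, was at 4434, 4211 and 4670.4 in control and 34038, 58340.5 and 47772 in heat and rose by 3.36 ± 0.31 (adjusted p = 9.07e-06). HSP60 (AT3G23990) of the mitochondrion was at 2125, 2409 and 2119 in control and 11006, 19309 and 20712 in heat and rose by 2.89 ± 0.32 (adjusted p = 3.06e-05). CHL-CPN10 (AT2G44650), a small plastid co-chaperonin, was at 4916, 4196 and 4703 in control and 2389, 2372 and 2290.3 in heat and fell by 0.97 ± 0.16 (adjusted p = 0.000497). The list medians of the 3 heat libraries were 1.43, 1.89 and 1.41, and heat 2 was the highest for 6 of 10 members. Of the 10, 3 were lower and 1 higher in heat than in high light, beside 24.9% and 24.5% of all genes. The number higher was 2 without heat 1 or high light 2. It was 0 without heat 2, heat 3, high light 1 or high light 3.

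Heat shock factors are the DNA-binding proteins that switch these genes on (class A) or damp them (class B). Of 17 tested 11 rose and 1 fell, with a median of 1.5. HSFA2 (AT2G26150) was at 16.9, 63.8 and 16.2 in control and 519.9, 9332 and 78546 in heat and rose by 8.06 ± 1.51 (adjusted p = 0.000938). HSFA3 (AT5G03720) was at 61.6, 53.6 and 49.5 in control and 683, 5448 and 5962 in heat and rose by 5.66 ± 0.67 (adjusted p = 4.37e-05). HSFA7A (AT3G51910) was at 20.3, 37.8 and 10.2 in control and 98.2, 704 and 2569.8 in heat and rose by 4.75 ± 1.09 (adjusted p = 0.00348). In all 3 genes heat 1 lay above the controls but far below heat 2 and heat 3. HSFA7B (AT3G63350) was listed at 0 in each control library and at 0.655, 187 and 672 in heat. Against a floor of 3 counts per library, heat 2 was at least 75.1-fold and heat 3 at least 270.1-fold higher, while heat 1 was under the floor. Among class B factors HSF4 (AT4G36990), also called HSFB1, was at 171, 175 and 146 in control and 1199, 4263 and 4418 in heat and rose by 4.1 ± 0.5 (adjusted p = 4.86e-05). HSFB2A (AT5G62020) rose by 3.33 ± 0.44 (adjusted p = 8.85e-05) and HSFB2B (AT4G11660) by 2.82 ± 0.46 (adjusted p = 0.000377). HSFA2, HSFA3, HSFA7A, HSF4 and HSFB2B changed by 9.96, 6.68, 6.0, 4.72 and 3.4 without heat 1. HSFA2 and HSFA7A changed by 6.34 and 3.65 without heat 3. HSFA2 changed by 8.69 without control 2.

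The 4 HSFA1 factors, which start the response and are present before stress, moved less, and not together. HSF1 (AT4G17750), also called HSFA1A, rose by 0.65 ± 0.19 (adjusted p = 0.0135). HSF3 (AT5G16820), also called HSFA1B, fell by 0.51 ± 0.19 (adjusted p = 0.0439). HSFA1D (AT1G32330) rose by 0.83 ± 0.19 (adjusted p = 0.003). HSFA1E (AT3G02990) was at 152, 133 and 152 in control and 270.4, 331 and 795 in heat and rose by 1.5 ± 0.35 (adjusted p = 0.00378). HSFA6B (AT3G22830), tied to abscisic acid, had the reverse order of libraries: it was at 11.8, 3.15 and 9.40 in control and 259, 92.5 and 53.4 in heat, with heat 1 highest, and rose by 3.74 ± 1.22 (adjusted p = 0.0229). HSFA4A (AT4G18880) and HSFA5 (AT4G13980), both of class A, did not pass, at -0.19 ± 0.17 (adjusted p = 0.374) and -0.41 ± 0.18 (adjusted p = 0.078). HSF3 did not pass without heat 1, heat 2, control 1, control 2 or control 3 (adjusted p = 0.0562 to 0.148). HSFA6B did not pass without heat 1, heat 2 or control 2 (adjusted p = 0.0527 to 0.0802). HSFA5 passed without heat 1, at -0.51 (adjusted p = 0.0452).

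Of the MBF1 coactivators and DREB2 factors, 6 of 7 rose. MBF1C (AT3G24500), a coactivator needed for basal thermotolerance, was at 136, 112 and 114 in control and 1752, 9304 and 29072 in heat and rose by 6.01 ± 0.71 (adjusted p = 4.16e-05). DREB2A (AT5G05410), which acts upstream of HSFA3, was at 226, 252 and 287 in control and 1184, 3297 and 7149 in heat and rose by 3.57 ± 0.51 (adjusted p = 0.000151). Both were higher than in high light, MBF1C by 2.64 ± 0.71 (adjusted p = 0.00833) and DREB2A by 1.35 ± 0.51 (adjusted p = 0.044). The difference of MBF1C from high light was 3.71 without heat 1 and 1.69 without heat 3. The difference of DREB2A from high light was 2.02 without heat 1. It did not pass without heat 2, heat 3, high light 1 or high light 2 (adjusted p = 0.11 to 0.192). MBF1B (AT3G58680), at 5001, 4376 and 5279 in control and 4602, 6978 and 4974 in heat, did not pass, at 0.16 ± 0.2 (adjusted p = 0.541). MBF1C and DREB2A changed by 7.08 and 4.25 without heat 1. MBF1C and DREB2A changed by 5.06 and 2.95 without heat 3.

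Folding genes of the endoplasmic reticulum rose in most cases. In the list of folding and degradation factors, 17 of 25 members tested rose and 3 fell, with a median change of 1.5, and the medians of the 3 heat libraries were 1.47, 1.6 and 1.8. BIP2 (AT5G42020), the main HSP70 of this compartment, was at 3626, 3865 and 3282 in control and 25372, 30617 and 52232 in heat and rose by 3.26 ± 0.35 (adjusted p = 2.16e-05). CNX1 (AT5G61790), calnexin, was at 5363, 5865 and 6027 in control and 29629, 29493 and 35693 in heat and rose by 2.45 ± 0.26 (adjusted p = 2.24e-05). CRT1 (AT1G56340), calreticulin, was at 5163, 5487 and 6426 in control and 24856, 22466 and 22028 in heat and rose by 2.03 ± 0.3 (adjusted p = 0.000193). PDIL2-2 (AT1G04980), a protein disulfide isomerase, was at 364, 382 and 325 in control and 4939, 4994 and 3789 in heat and rose by 3.67 ± 0.39 (adjusted p = 2.16e-05). ERDJ3A (AT3G08970), a DnaJ co-chaperone also needed in pollen at high temperature, was at 59.1, 74.9 and 62.4 in control and 1162, 3321 and 3627 in heat and rose by 5.19 ± 0.53 (adjusted p = 1.61e-05). In all 5 genes the groups were apart, and in CNX1, CRT1 and PDIL2-2 the heat libraries lay close together. BIP3 (AT1G09080), the inducible form of BIP, was at 87.8, 70.9 and 9.40 in control and 5.89, 17.1 and 195 in heat and did not pass, at -0.48 ± 1.05 (adjusted p = 0.727). BIP1 and BIP2 are near-identical, so reads may be divided between them.

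Among regulators of the unfolded protein response, 6 of 7 rose and 1 fell. Leaving out 1 library gave 5 to 6 raised and 0 to 1 lowered, and a replicate block gave 5 raised and 0 lowered. TIN1 (AT5G64510), named for its induction by tunicamycin, was at 70.1, 56.8 and 31.6 in control and 2685, 4120.2 and 2555 in heat and rose by 5.9 ± 0.59 (adjusted p = 1.5e-05). BZIP28 (AT3G10800), a membrane-bound transcription factor released by stress, was at 637, 539.9 and 586 in control and 1047, 3487 and 4219 in heat and rose by 2.08 ± 0.4 (adjusted p = 0.00112). BZIP60 (AT1G42990), whose mRNA is spliced by IRE1, was at 777, 787 and 724 in control and 1203, 1205 and 2661 in heat and rose by 1.04 ± 0.4 (adjusted p = 0.0457), and splicing itself cannot be read from gene counts. IRE1A (AT2G17520) rose by 1.42 ± 0.24 (adjusted p = 0.000441). Against high light, 16 of the 25 folding genes and 5 of these 7 were higher, beside 24.5% of all genes. Lower were 1 of the 25 and 0 of the 7, beside 24.9% of all genes. BZIP28 changed by 2.71 without heat 1. BZIP60 did not pass without heat 3, control 1, control 2 or control 3 (adjusted p = 0.0867 to 0.187).

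The heat libraries were set side by side for raised genes with a symbol, a change of at least 2 and a heat mean of at least 50. The 8 with the widest range over the 3 libraries were HSP70B, HSFA7B, HSFA2, HSP101, SRO3, BAG6, ABCG38 and ELIP1, with ranges from 5.24 to 9.32. SRO3 (AT1G70440), a relative of the RCD1 protein, was at 0, 11.8 and 1.71 in control and 7.20, 197 and 805 in heat. ELIP1 (AT3G22840), an early light-induced protein of the thylakoid, was at 16.9, 76.5 and 57.2 in control and 47.8, 1849 and 1709 in heat, with heat 1 inside the range of the controls. ABCG38 (AT3G30842), a transporter of the ABCG family, was listed at 0 in each control library and at 1.31, 109.6 and 53.4 in heat. This was at least 22-fold higher on average than the floor of 3 counts per library. Heat 2 was at least 44.1-fold and heat 3 at least 21.5-fold higher, while heat 1 was under the floor. The fitted change, which depends on the pseudocount, was 4.59 ± 1.31 (adjusted p = 0.0117). The 8 with the narrowest range were PDIL1-2, G3Pp1, AMT1;2, HAB1, CYP81G1, MIR824, RPL3B and CRT1, with ranges from 0.078 to 0.17. AMT1;2 (AT1G64780), an ammonium transporter, was at 91.2, 92.2 and 99.1 in control and 1189.7, 1260.2 and 1278 in heat and rose by 3.71 ± 0.34 (adjusted p = 8.53e-06). CYP81G1 (AT5G67310), a cytochrome P450, was listed at 0 in each control library and at 55.7, 50.3 and 55.3 in heat, at least 21.6-fold higher on average than the floor of 3 counts per library. MIR824 (AT4G24415), the precursor of a microRNA, was at 11, 6.31 and 7.69 in control and 285, 303 and 317 in heat and rose by 5.05 ± 0.36 (adjusted p = 2.45e-06). Of all 4745 raised genes, 291 had a range over 2 and 1787 a range under 0.5. SRO3, ELIP1 and ABCG38 changed by 6.94, 5.36 and 6.28 without heat 1. SRO3 and ABCG38 changed by 3.63 and 4.0 without heat 3. SRO3 changed by 6.05 without control 2. SRO3 did not pass without control 1 (adjusted p = 0.05). ELIP1 did not pass without heat 2, heat 3 or control 1 (adjusted p = 0.071 to 0.0849). ABCG38 did not pass without heat 2 (adjusted p = 0.0647).

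**Figure D4:**
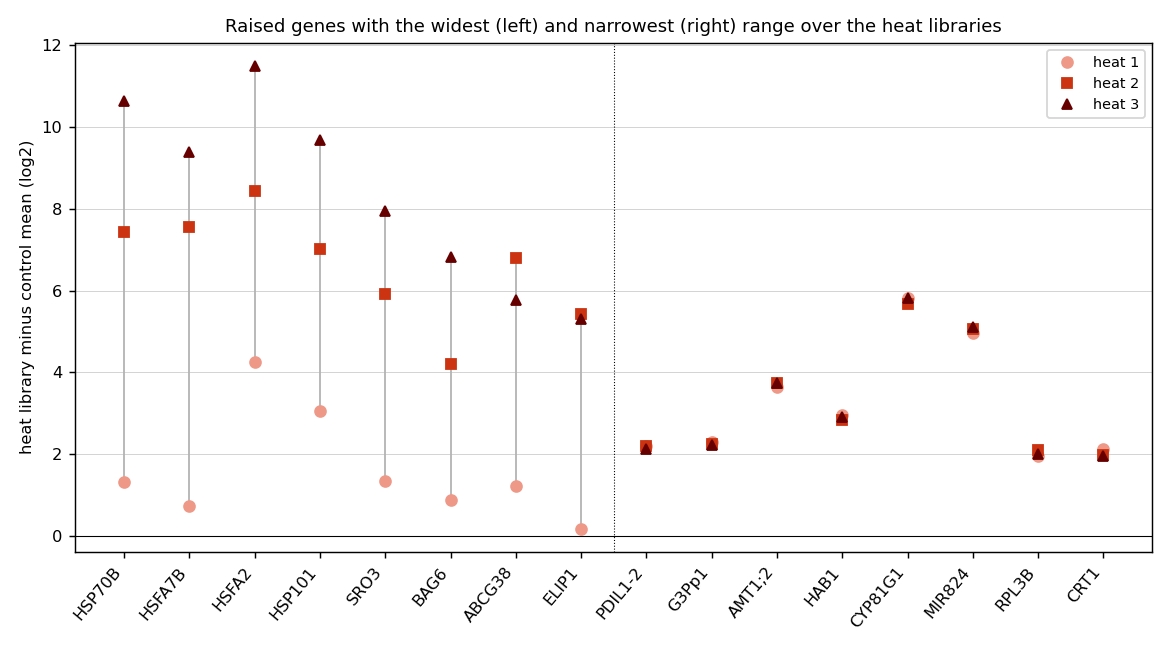
Difference between each heat library and the mean of the 3 control libraries (y axis, log2) for raised genes with the widest (left of the dotted line) and narrowest (right) range over the heat libraries. Circles, squares and triangles are heat 1, 2 and 3. On the left heat 1 lies well below the other libraries, and on the right the 3 symbols fall almost on one another.

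Transport and lipid transfer genes were among the largest rises outside the chaperones. HA9 (AT1G80660), a plasma membrane proton pump, was at 1.69, 1.58 and 0 in control and 372, 1655 and 817 in heat and rose by 8.71 ± 0.64 (adjusted p = 2.95e-06). LTP4 (AT5G59310), a lipid transfer protein, was at 12.7, 11 and 7.69 in control and 4761, 8693 and 2073 in heat and rose by 8.61 ± 1.45 (adjusted p = 0.000449). Its neighbour LTP3 (AT5G59320) was at 176, 63.8 and 68.3 in control and 8067, 11599.8 and 3784 in heat and rose by 6.26 ± 1.21 (adjusted p = 0.00113). LTP3 was named after its values were seen. All 3 had heat 2 highest. Aquaporins, the water channels, gave 9 raised and 3 lowered of 17, beside 24.6% and 24.8% of all genes. RD28 (AT2G37180), a plasma membrane channel, was at 139, 114 and 162 in control and 3845, 13566 and 11177 in heat and rose by 5.92 ± 0.45 (adjusted p = 3.52e-06). PIP2B (AT2G37170), a close relative that may share reads with it, rose by 2.5 ± 0.44 (adjusted p = 0.000629). DELTA-TIP (AT3G16240) of the vacuole was at 11416, 10418 and 11669 in control and 2062, 2133 and 5291 in heat and fell by 1.97 ± 0.32 (adjusted p = 0.000374).

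Scavengers of reactive oxygen changed in part. Of 28 members 11 rose and 1 fell, beside 24.6% and 24.8% of all genes. APX2 (AT3G09640), the inducible cytosolic ascorbate peroxidase and a known target of heat shock factors, was at 9.29, 7.09 and 31.6 in control and 1108, 3361 and 4025 in heat and rose by 7.47 ± 0.69 (adjusted p = 9.18e-06). APX1 (AT1G07890), its constitutive counterpart, was at 7279, 6263 and 6070.4 in control and 16411, 22219 and 27455 in heat and rose by 1.73 ± 0.22 (adjusted p = 7.79e-05). CAT2 (AT4G35090), a catalase, was at 4191, 6006 and 5135 in control and 11489, 52353 and 81283 in heat and rose by 2.85 ± 0.52 (adjusted p = 0.000794). CAT3 (AT1G20620), another catalase, was at 81784, 62611 and 75820.4 in control and 60846, 59885 and 37515 in heat and did not pass, at -0.5 ± 0.27 (adjusted p = 0.135). CSD2 (AT2G28190), a copper and zinc superoxide dismutase of the plastid, was at 15054, 14125 and 5699.7 in control and 10727, 16352 and 1908 in heat, with library 3 the lowest in both groups, and did not pass, at -0.62 ± 0.88 (adjusted p = 0.584). Of 7 genes of alternative respiration 2 rose and 1 fell, beside 24.6% and 24.8% of all genes. AOX1A (AT3G22370), the alternative oxidase of mitochondria, was at 1044, 1392 and 1356 in control and 2699, 3464 and 7113 in heat and rose by 1.69 ± 0.42 (adjusted p = 0.00572). NDB2 (AT4G05020), an alternative NADH dehydrogenase, rose by 2.39 ± 0.37 (adjusted p = 0.00027). CAT2 changed by 3.69 without heat 1. APX2 changed by 8.08 without control 3.

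Abscisic acid is the hormone of water deficit, and clade A PP2C phosphatases are both its brakes and its targets. Of 15 members 5 rose and 1 fell, beside 24.6% and 24.8% of all genes. HAI1 (AT5G59220) was at 84.4, 11.8 and 41.9 in control and 3077, 2250.1 and 1155 in heat and rose by 5.79 ± 0.73 (adjusted p = 6.63e-05). HAB1 (AT1G72770) was at 431, 315 and 355 in control and 2842, 2618 and 2738 in heat and rose by 2.9 ± 0.25 (adjusted p = 6.02e-06). ABI1 (AT4G26080) was at 2546, 1685 and 2459 in control and 6515, 4905 and 3019 in heat and rose by 1.06 ± 0.29 (adjusted p = 0.00919). NCED3 (AT3G14440), which makes the precursor of abscisic acid, was at 377, 261 and 336 in control and 1176, 409.6 and 271 in heat and did not pass, at 0.66 ± 0.43 (adjusted p = 0.225). PP2CA (AT3G11410) was at 2704, 1247 and 2349 in control and 6093, 2732 and 2049 in heat, also without passing, at 0.7 ± 0.46 (adjusted p = 0.226). In HAI1, ABI1, NCED3 and PP2CA heat 1 was the highest heat library and heat 3 the lowest. The list medians of the 3 libraries were 1.57, 0.5 and 0.4. HAI1 changed by 6.42 without control 1. HAI1 changed by 5.05 without control 2. NCED3 passed without heat 3, at 1.11 (adjusted p = 0.0433).

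Most genes of cold, dehydration and proline did not pass, 13 of 18. Of these 18 members 1 rose and 4 fell, both below the 24.6% and 24.8% of all genes. RD20 (AT2G33380), a lipid droplet protein induced by drought, was at 513, 136 and 536 in control and 4997, 3329 and 1786 in heat and rose by 3.21 ± 0.59 (adjusted p = 0.000867). LTI30 (AT3G50970), a dehydrin, was at 2932, 1404 and 3186 in control and 37.3, 70.1 and 127 in heat and fell by 5.07 ± 0.59 (adjusted p = 4.02e-05). COR15B (AT2G42530), a plastid protein of cold acclimation, was at 58712, 31350.2 and 60098 in control and 9319.7, 6241 and 3891 in heat and fell by 2.98 ± 0.49 (adjusted p = 0.000411). ERD10 (AT1G20450), another dehydrin, did not pass, at 0.41 ± 0.36 (adjusted p = 0.36). Among galactinol, raffinose and starch genes 5 rose and 7 fell of 15, beside 24.6% and 24.8% of all genes. GOLS1 (AT2G47180), the heat-induced galactinol synthase whose promoter is shown above, was at 155, 144 and 296 in control and 2439, 6599 and 18665 in heat and rose by 5.15 ± 0.6 (adjusted p = 3.75e-05). GOLS2 (AT1G56600) was at 1277, 649 and 1142 in control and 6024, 5592 and 3838 in heat and rose by 2.36 ± 0.34 (adjusted p = 0.000171). GOLS3 (AT1G09350), the cold-induced form, was at 1988, 2158 and 3053 in control and 108, 335 and 307 in heat and fell by 3.39 ± 0.41 (adjusted p = 4.87e-05). Heat thus raised GOLS1 and GOLS2 and lowered GOLS3. The number of cold and dehydration genes raised was 3 without heat 1. The number of cold and dehydration genes lowered was 2 without control 3. GOLS1 changed by 5.88 without heat 1. GOLS1 changed by 4.41 without heat 3. RD20 changed by 2.56 without control 2.

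SR proteins, which steer the splicing of pre-mRNA, rose in 10 of 20 cases and fell in 1, beside 24.6% and 24.8% of all genes. SR45A (AT1G07350) was at 520.1, 658 and 515 in control and 3198, 9552 and 9165 in heat and rose by 3.54 ± 0.52 (adjusted p = 0.00018). SR30 (AT1G09140) was at 1533, 1554 and 1619 in control and 5380.1, 10270.4 and 8607 in heat and rose by 2.31 ± 0.29 (adjusted p = 5.89e-05). SR34B (AT4G02430) was at 449, 474 and 469.8 in control and 1751, 1357 and 881 in heat, with heat 1 highest, and rose by 1.46 ± 0.29 (adjusted p = 0.00142). All 4 HTT genes, whose products are linked to thermotolerance and whose transcripts are cut by small RNAs from TAS1 precursors, rose. HTT1 (AT4G29770) was at 0, 1.58 and 0.854 in control and 21.6, 27.8 and 32.4 in heat and rose by 4.05 ± 0.55 (adjusted p = 0.000102). HTT3 (AT5G18065) was at 47.3, 73.3 and 59.8 in control and 156, 394 and 407 in heat and rose by 2.29 ± 0.36 (adjusted p = 0.000318). None of the 5 TAS precursors passed by limma, edgeR or DESeq2, nor at an unadjusted p under 0.05 by limma. TAS1C (AT2G39675) was at 258, 279.8 and 303 in control and 183, 224 and 144 in heat, at -0.63 ± 0.61 (adjusted p = 0.418), and TAS1A (AT2G27400) at 323, 349 and 309 in control and 560.5, 549 and 413 in heat, at 0.62 ± 1.1 (adjusted p = 0.665). With the 6 heat and control libraries alone in the fit, 3 of the 5 passed: TAS1C lower (adjusted p = 0.0373), TAS1A higher (adjusted p = 0.02) and TAS2 higher (adjusted p = 0.0382).

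Genes of salicylic acid, the hormone of defence against pathogens that feed on living cells, fell together. Of 20 members 15 fell, beside 24.8% of all genes, with a median of -2.84. The list medians of the 3 heat libraries were -2.44, -2.65 and -2.79. PCC1 (AT3G22231), a pathogen-induced membrane protein, was at 22872, 18255 and 23251 in control and 49.1, 79 and 185 in heat and fell by 7.88 ± 0.53 (adjusted p = 1.82e-06). LURP1 (AT2G14560), needed for resistance to downy mildew, was at 9383, 5677 and 4866 in control and 55, 13.5 and 33.4 in heat and fell by 7.72 ± 0.6 (adjusted p = 3.81e-06). ACD6 (AT4G14400), an ankyrin protein that promotes salicylic acid signalling, was at 19788, 10385 and 12286 in control and 678, 97.9 and 395 in heat and fell by 5.51 ± 0.55 (adjusted p = 1.54e-05). All 3 are also among the 12 largest falls of genes with a symbol. The transcription factor SARD1 (AT1G73805), which drives salicylic acid synthesis, was at 594, 525 and 483 in control and 20.3, 14.4 and 26.7 in heat and fell by 4.67 ± 0.54 (adjusted p = 3.78e-05), and WRKY70 (AT3G56400) was at 4754, 2693 and 4158 in control and 247, 162 and 357 in heat and fell by 3.95 ± 0.33 (adjusted p = 5.55e-06). Both had every heat library below every control library. ICS1 (AT1G74710), the synthesis enzyme itself, was at 501, 561 and 505 in control and 261, 235 and 629.6 in heat and did not pass, at -0.62 ± 0.3 (adjusted p = 0.102). The receptor NPR1 (AT1G64280) was at 1292, 1229.6 and 1122 in control and 730.0, 854 and 1054 in heat, also without passing, at -0.48 ± 0.22 (adjusted p = 0.0864). ACD6 changed by -6.1 without heat 1. ACD6 changed by -4.71 without heat 2. ICS1 passed without heat 3, at -1.07 (adjusted p = 0.00092).

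The pathogenesis-related marker PR1 (AT2G14610) was at 531, 154 and 13.7 in control and 18.3, 10.8 and 0.954 in heat and fell by 3.8 ± 1.36 (adjusted p = 0.0337), with control libraries far apart and control 3 below heat 1. PR2 (AT3G57260) was at 1147, 592 and 201 in control and 741, 107 and 16.2 in heat and did not pass, at -2.21 ± 1.04 (adjusted p = 0.0934). Against high light, in which PCC1 was at 7291, 2612 and 5424, heat was lower, at -5.69 ± 0.53 (adjusted p = 8.59e-06) for PCC1 and -1.33 ± 0.33 (adjusted p = 0.00567) for WRKY70. Of the 20 members 9 were lower and 2 higher than in high light, beside 24.9% and 24.5% of all genes. Among immune receptors and kinases 6 fell and 2 rose of 19, beside 24.8% and 24.6% of all genes. FLS2 (AT5G46330), the receptor of bacterial flagellin, was at 1220.0, 1022 and 1255 in control and 242, 46.7 and 50.6 in heat and fell by 3.79 ± 0.48 (adjusted p = 6.72e-05), and heat minus high light was -0.011 ± 0.48 (adjusted p = 0.986). It passed without heat 1, at -0.77 (adjusted p = 0.0174). RLP30 (AT3G05360), a receptor-like protein of antifungal defence, went the other way, from 50.7, 75.7 and 38.4 to 923, 1019 and 893, by 4.13 ± 0.27 (adjusted p = 1.79e-06). BAK1 (AT4G33430), a co-receptor, did not pass, at 0.36 ± 0.23 (adjusted p = 0.201). PR1 and FLS2 changed by -4.47 and -4.55 without heat 1. PR1 changed by -5.23 without control 3. PR1 did not pass without heat 2, heat 3, control 1 or control 2 (adjusted p = 0.0582 to 0.151). PR2 passed without heat 1, at -3.58 (adjusted p = 0.00318).

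Other genes were also among the 12 largest falls of genes with a symbol, a set for which the groups were required not to overlap. RGXT3 (AT1G56550), a xylosyltransferase that acts on pectin, was at 152, 107 and 142 in control and 1.31, 0 and 2.86 in heat and fell by 6.01 ± 0.69 (adjusted p = 3.49e-05). BG3 (AT3G57240), a glucanase next to PR2, was at 263, 299 and 109 in control and 0.655, 3.59 and 0 in heat and fell by 6.71 ± 0.74 (adjusted p = 2.65e-05). PLA2A (AT2G26560), a lipid acyl hydrolase induced by pathogens, was at 719, 1060.1 and 609 in control and 13.7, 12.6 and 20.0 in heat and fell by 5.58 ± 0.28 (adjusted p = 2.49e-07). PCR1 (AT1G14880), a cadmium resistance protein of the plasma membrane, was at 2340.5, 1551 and 809 in control and 19.6, 41.3 and 34.3 in heat and fell by 5.51 ± 0.63 (adjusted p = 3.39e-05). In PLA2A and PCR1 control 3 was the lowest control library. TPS03 (AT4G16740), a terpene synthase, was at 437, 853 and 782 in control and 34, 14.4 and 9.54 in heat and fell by 5.22 ± 0.65 (adjusted p = 6.04e-05). FUT4 (AT2G15390), a fucosyltransferase of the cell wall, was at 166, 260.1 and 104 in control and 5.24, 3.59 and 2.86 in heat and fell by 5.11 ± 0.45 (adjusted p = 6.64e-06). TBL15 (AT2G37720), of a family of cell wall acetyltransferases, was at 51.5, 77.2 and 87.1 in control and 0.655, 0 and 4.77 in heat and fell by 5.07 ± 0.56 (adjusted p = 2.9e-05). BG3 changed by -7.32 without heat 2. TBL15 changed by -5.79 without heat 3.

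**Figure D5:**
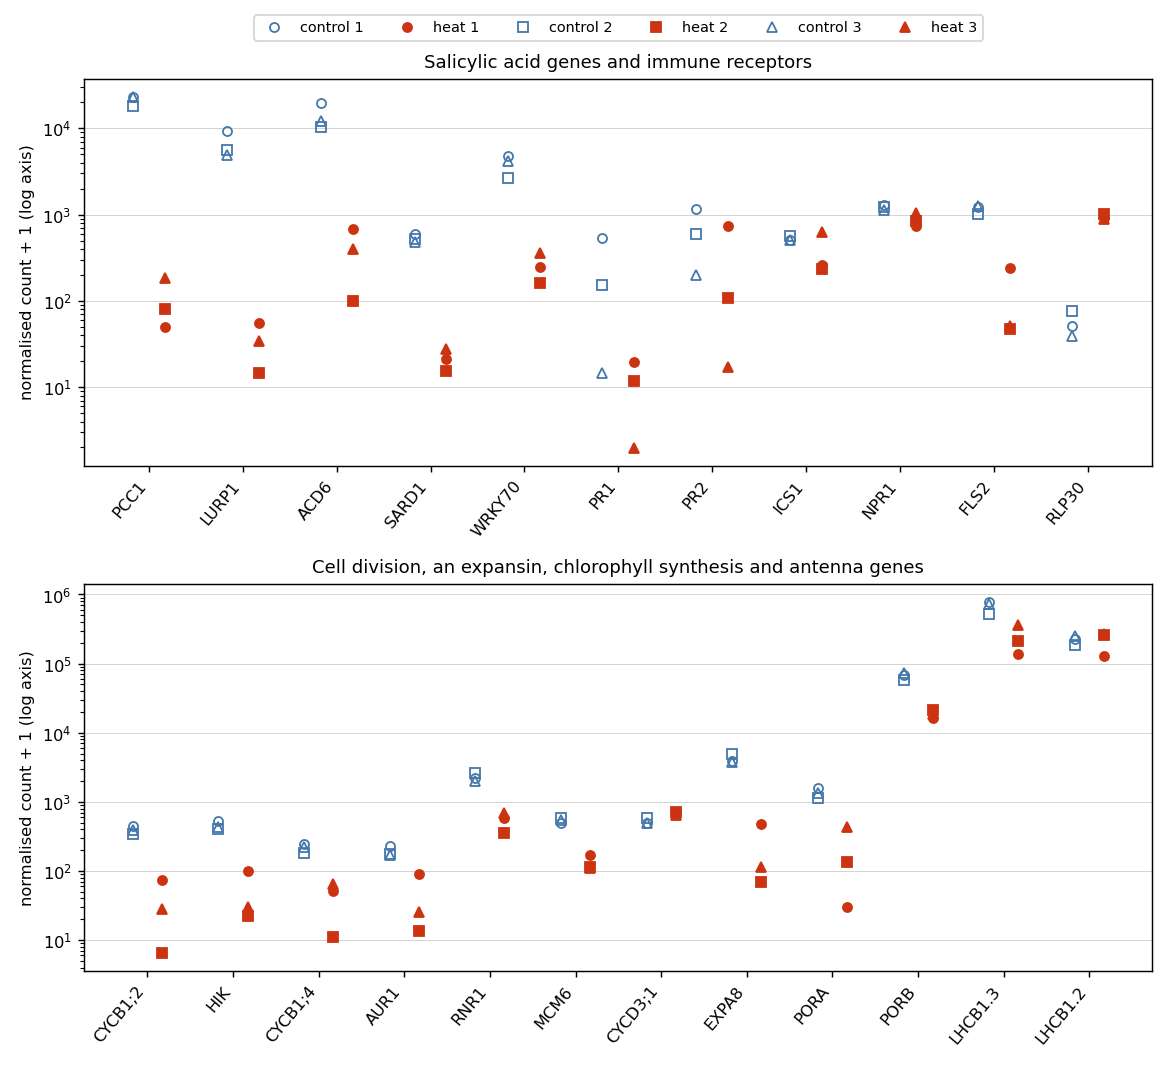
Normalised counts + 1 (y axis, log scale) of salicylic acid and immune genes (upper panel) and of cell division, expansin, chlorophyll synthesis and antenna genes (lower panel) in each library. Open blue symbols are control and filled red symbols heat, with circles, squares and triangles for libraries 1, 2 and 3. PCC1, LURP1, SARD1 and the cell division genes other than CYCD3;1 have every heat library below every control library, while PR1 overlaps and RLP30 is higher in heat.

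Replication and division genes fell almost without exception. Of 25 members 24 fell, beside 24.8% of all genes, with a median change of -1.9. The groups did not overlap for any of the 25, nor for 60.8% of all genes. CYCB1;2 (AT5G06150), a mitotic cyclin, was at 441, 346 and 394 in control and 72.7, 5.39 and 26.7 in heat and fell by 4.06 ± 0.68 (adjusted p = 0.000429). HIK (AT1G18370), a kinesin of cytokinesis, was at 523, 404 and 434 in control and 100.2, 21.6 and 28.6 in heat and fell by 3.47 ± 0.54 (adjusted p = 0.000263). RNR1 (AT2G21790), the large subunit of ribonucleotide reductase, was at 2196, 2643 and 2030.3 in control and 589, 349 and 691 in heat and fell by 2.12 ± 0.28 (adjusted p = 8.95e-05). MCM6 (AT5G44635), part of the replicative helicase, was at 485, 578 and 545 in control and 169.6, 111 and 108 in heat and fell by 2.07 ± 0.29 (adjusted p = 0.000121). The one member that did not fall was CYCD3;1 (AT4G34160), a cyclin of the entry into division, at 491, 584 and 497 in control and 701, 715 and 647 in heat and 0.39 ± 0.24 (adjusted p = 0.184). All 24 were also lower than in high light, beside 24.9% of all genes. HTA6 (AT5G59870), a histone, was at 2341, 2013 and 2577 in control and 49.1, 22.5 and 209 in heat and fell by 5.2 ± 0.56 (adjusted p = 2.27e-05). CYCB1;2 and HIK changed by -4.88 and -4.13 without heat 1. CYCB1;2 and HTA6 changed by -3.12 and -4.49 without heat 2. HTA6 changed by -6.07 without heat 3.

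Expansins, which loosen the cell wall, fell in 3 of 8 cases, beside 24.8% of all genes, and heat 1 was the highest heat library for all 8. EXPA8 (AT2G40610) was at 3902, 4836 and 3821 in control and 473, 69.2 and 113 in heat and fell by 4.74 ± 0.7 (adjusted p = 0.000179), and stood above high light by 2.44 ± 0.7 (adjusted p = 0.0116). The difference of EXPA8 from high light was 1.64 without heat 1 and 3.25 without high light 2. It did not pass without high light 1, at 1.81 (adjusted p = 0.058). EXPA6 (AT2G28950) was at 3295, 3553 and 2987 in control and 3805, 2584 and 1750.4 in heat and did not pass, at -0.34 ± 0.27 (adjusted p = 0.32). Glucosinolate genes, which make the defence compounds of the cabbage family, fell in 5 of 17 cases, near the 24.8% of all genes, and heat 1 was the highest heat library for all 17. CYP83B1 (AT4G31500), of the indolic branch, was at 4591, 6176 and 4409 in control and 2062, 701 and 729 in heat and fell by 2.3 ± 0.33 (adjusted p = 0.00015). CYP83A1 (AT4G13770), of the aliphatic branch, was at 6739, 8041 and 11302 in control and 11388, 8081 and 5565 in heat and did not pass, at -0.086 ± 0.28 (adjusted p = 0.815). In wax synthesis 3 of 9 fell, beside 24.8% of all genes. The number of expansins raised was 1 without heat 3. The number of expansins lowered was 5 without heat 1. The number of glucosinolate genes lowered was 8 without heat 1. EXPA8 changed by -5.54 without heat 1.

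Jasmonate genes had no common direction: 4 rose and 4 fell of 23, below the 24.6% and 24.8% of all genes. LOX2 (AT3G45140), a lipoxygenase of the plastid, was at 18918, 13147 and 26811 in control and 32872, 9819 and 8518 in heat and did not pass, at -0.43 ± 0.43 (adjusted p = 0.438). LOX3 (AT1G17420), a second lipoxygenase, was at 340.3, 381 and 284 in control and 887, 524 and 550.4 in heat and rose by 0.93 ± 0.23 (adjusted p = 0.00467). JAZ11 (AT3G43440), a repressor, fell by 1.04 ± 0.17 (adjusted p = 0.000435). Flavonoid genes gave 4 raised and 3 lowered of 17 against control, near or below the 24.6% and 24.8% of all genes. All 17 were lower than in high light, beside 24.9% of all genes. CHS (AT5G13930), the entry enzyme, was at 631, 949 and 600.5 in control and 2471, 5865 and 4426 in heat and rose by 2.49 ± 0.36 (adjusted p = 0.000169), beside 179684, 94171 and 175259 in high light, a difference of -5.17 ± 0.36 (adjusted p = 1.87e-06). TT19 (AT5G17220), a transferase of anthocyanin transport, was at 138, 156 and 175 in control and 91.7, 14.4 and 6.68 in heat and fell by 2.82 ± 0.71 (adjusted p = 0.00567). PAL1 (AT2G37040), the first enzyme of the pathway, was at 819.8, 1048 and 966 in control and 765, 621 and 4285 in heat, high in heat 3 alone, and did not pass, at 0.43 ± 0.56 (adjusted p = 0.546). The number of jasmonate genes raised was 2 without heat 3, control 1 or control 3. The number of jasmonate genes lowered was 1 without heat 2, control 1 or control 3 and 2 without heat 3 or control 2. TT19 changed by -3.85 without heat 1. TT19 changed by -2.06 without heat 3. LOX2 passed without heat 1, at -1.04 (adjusted p = 0.011).

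Antenna proteins harvest light. Of 19 members 4 fell, a share no larger than the 24.8% of all genes, and heat 1 was the lowest heat library for all 19. LHCB1.3 (AT1G29930) was at 781987, 517178 and 720523 in control and 139466, 213469.5 and 365153 in heat and fell by 1.58 ± 0.38 (adjusted p = 0.00451). LHCB1.2 (AT1G29910), nearly the same in sequence, was at 225521, 183485 and 249035 in control and 130337, 263363 and 263712 in heat and did not pass, at -0.062 ± 0.35 (adjusted p = 0.896), and reads of these genes may be divided between them. LHCB3 (AT5G54270) fell by 0.88 ± 0.29 (adjusted p = 0.0245). Of the 19, 16 were higher and 2 lower than in high light, beside 24.5% and 24.9% of all genes. The number of antenna genes raised was 1 without heat 1 or control 1. The number of antenna genes lowered was 2 without control 1 or control 3 and 7 without heat 3. LHCB3 did not pass without control 1 or control 3 (adjusted p = 0.076 to 0.0801).

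Genes of chlorophyll synthesis fell in 10 of 21 cases, beside 24.8% of all genes. PORA (AT5G54190), a light-dependent reductase of protochlorophyllide, was at 1600.0, 1141 and 1361 in control and 28.8, 132 and 428 in heat and fell by 3.5 ± 0.7 (adjusted p = 0.00139). PORB (AT4G27440), its main leaf counterpart, was at 67325, 58583 and 73275 in control and 16183, 21267 and 18428 in heat and fell by 1.84 ± 0.22 (adjusted p = 4.49e-05). HEMC (AT5G08280), an early step of tetrapyrrole synthesis, was at 16414, 13812 and 16062 in control and 3974, 4161 and 5446 in heat and fell by 1.78 ± 0.17 (adjusted p = 1.27e-05). GUN5 (AT5G13630), the large subunit of magnesium chelatase, was at 39100.5, 35689 and 36054 in control and 32986, 79754 and 98916 in heat and did not pass, at 0.79 ± 0.34 (adjusted p = 0.0737). In chlorophyll breakdown 1 of 10 rose, beside 24.6% of all genes. The number of chlorophyll synthesis genes raised was 4 without heat 1. The number of chlorophyll breakdown genes raised was 0 without heat 2, heat 3 or control 2 and 2 without heat 1. The number of chlorophyll breakdown genes lowered was 1 without heat 1. PORA changed by -2.5 without heat 1. PORA changed by -4.43 without heat 3. GUN5 passed without heat 1, at 1.27 (adjusted p = 0.000494).

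Rubisco fixes carbon, and its activase is the step of photosynthesis known to be most sensitive to heat. RCA (AT2G39730), the activase, was at 96651, 91626 and 111690.0 in control and 99232, 147967 and 292435 in heat and did not pass, at 0.71 ± 0.38 (adjusted p = 0.143). The small subunit genes differed: RBCS1A (AT1G67090) was at 471599, 349514 and 399029.9 in control and 193165, 232849.9 and 233218 in heat and fell by 0.88 ± 0.3 (adjusted p = 0.0267), and RBCS2B (AT5G38420) was at 32911, 24509 and 28452 in control and 48850.2, 49954 and 74822 in heat and rose by 1.0 ± 0.24 (adjusted p = 0.00493). Reads of these close copies may be divided between them. Among thylakoid proteases and photoprotective proteins 6 rose and 4 fell of 20, near the 24.6% and 24.8% of all genes. FTSH6 (AT5G15250), a protease known to act on HSP21 after heat, was at 0, 0.788 and 0.854 in control and 154, 254 and 189.8 in heat and rose by 7.04 ± 0.49 (adjusted p = 2.35e-06). FTSH8 (AT1G06430), of the protease that removes damaged photosystem II protein, was at 2796, 1907 and 2613 in control and 4879, 13664 and 12421 in heat and rose by 1.96 ± 0.33 (adjusted p = 0.000457). NPQ1 (AT1G08550), the de-epoxidase of the xanthophyll cycle, was at 6336, 5232 and 6398 in control and 1349, 1848 and 1707 in heat and fell by 1.88 ± 0.15 (adjusted p = 4.77e-06). The number of Rubisco genes raised was 1 without heat 2, heat 3, control 1, control 2 or control 3. The number of Rubisco genes lowered was 0 without control 1 or control 3. The number of thylakoid genes raised was 11 without heat 1. RCA passed without heat 1, at 1.06 (adjusted p = 0.0164). RBCS1A did not pass without control 1 or control 3 (adjusted p = 0.0793 to 0.106).

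Clock genes changed in 4 cases upward and 3 downward of 21, below the 24.6% and 24.8% of all genes. CCA1 (AT2G46830), a morning factor, was at 135, 354 and 247 in control and 507, 1734 and 4625 in heat and rose by 2.8 ± 0.69 (adjusted p = 0.0052). CHE (AT5G08330), a factor that represses it, was at 2617, 2687 and 3004 in control and 807, 825 and 903 in heat and fell by 1.71 ± 0.18 (adjusted p = 2.16e-05). TOC1 (AT5G61380), an evening factor, was at 6863, 4895 and 4774 in control and 4727, 6686 and 3441 in heat and did not pass, at -0.19 ± 0.51 (adjusted p = 0.781). The labels give no harvest hour, and a difference in time of day between libraries was not tested. Of 19 light signalling genes 4 rose and 4 fell, near or below the 24.6% and 24.8% of all genes. PIF4 (AT2G43010), the factor of growth at warm temperature, was at 5145, 5279 and 5459.7 in control and 2751, 3301 and 2519 in heat and fell by 0.9 ± 0.26 (adjusted p = 0.0127), but stood above high light by 1.65 ± 0.26 (adjusted p = 0.000294). Its auxin-related target IAA29 (AT4G32280) was at 330.1, 190.0 and 312 in control and 60.2, 42.2 and 52.5 in heat and fell by 2.38 ± 0.5 (adjusted p = 0.0019). PIF3 (AT1G09530), a relative of PIF4, rose by 1.84 ± 0.33 (adjusted p = 0.000652). The number of clock genes raised was 2 without heat 2 or control 3 and 9 without heat 1. The number of light signalling genes raised was 2 without heat 3. CCA1 changed by 3.63 without heat 1. CCA1 changed by 2.04 without heat 3.

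Removal of proteins gave a mixed result. None of 12 proteasome subunits passed by limma, 1 did at an unadjusted p under 0.05, and edgeR and DESeq2 each called 1 higher, with a median of 0.2 and heat 1 lowest for all 12. Of 13 autophagy genes 7 rose and 2 fell, beside 24.6% and 24.8% of all genes. ATG8B (AT4G04620) was at 304, 322 and 346 in control and 849.9, 764 and 748 in heat and rose by 1.28 ± 0.15 (adjusted p = 3.92e-05), and NBR1 (AT4G24690), a receptor of ubiquitinated cargo, was at 8267, 6808 and 7619.8 in control and 6026, 14982 and 16857 in heat and did not pass, at 0.61 ± 0.37 (adjusted p = 0.184). Fatty acid desaturases, which lower the melting point of membrane lipids, rose in 2 of 10 cases and fell in 1, near or below the 24.6% and 24.8% of all genes. FAD4 (AT4G27030) was at 357, 467 and 406 in control and 642, 1653 and 2416 in heat and rose by 1.75 ± 0.36 (adjusted p = 0.0017), and FAD3 (AT2G29980), of the endoplasmic reticulum, was at 4206, 3747 and 3652 in control and 2068, 2227 and 2739 in heat and fell by 0.73 ± 0.18 (adjusted p = 0.00553). FAD8 (AT5G05580), a plastid form, was at 1624, 1611 and 1338 in control and 398, 763 and 1679 in heat, at -0.93 ± 0.37 (adjusted p = 0.051). The number of proteasome subunits raised was 4 without heat 1. The number of autophagy genes raised was 3 without heat 2 or control 2. The number of autophagy genes lowered was 1 without heat 1, control 1, control 2 or control 3. The number of fatty acid desaturases raised was 5 without heat 1. The number of fatty acid desaturases lowered was 2 without heat 3. NBR1 passed without heat 1, at 1.1 (adjusted p = 0.00828). FAD8 passed without heat 3, at -1.46 (adjusted p = 0.000531).

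Markers of leaf cell types moved in places. Of all genes tested, 24.6% rose and 24.8% fell. Of the 4 mesophyll markers (RBCS1A, LHCB2.1, LHCB3 and STOMAGEN) 2 fell, RBCS1A and LHCB3, both already described above among photosynthesis genes. Of 6 guard cell markers 3 fell and 1 rose, their sum lying at 1881 to 2263 in control and 1647 to 2266 in heat. Of 6 phloem markers 1 rose, with sums of 13020 to 15575 in control and 9644 to 16709 in heat. Of 4 epidermal markers 1 fell, with sums of 13615 to 14745 in control and 9017 to 10936 in heat. Of 4 xylem markers 1 rose and 1 fell, with sums of 994 to 1789 and 1998 to 3474. Whether the makeup of the tissue contributes to the changes above was not tested. The number of mesophyll markers lowered was 0 without control 1 or control 3. The number of guard cell markers raised was 0 without heat 2, control 1 or control 2. The number of guard cell markers lowered was 1 without heat 1, control 2 or control 3. The number of phloem markers raised was 0 without heat 2, heat 3, control 1, control 2 or control 3. The number of phloem markers lowered was 1 without heat 1. The number of epidermal markers lowered was 0 without heat 2, heat 3, control 1, control 2 or control 3 and 2 without heat 1. The number of xylem markers lowered was 0 without heat 2, control 2 or control 3.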

How the data were processed

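RNA of leaves was extracted with Trizol and sequenced from poly(A) TruSeq libraries, per the labels' protocols. Per the submitters' processing notes the tools were FastQC 0.11.7, STAR 2.4.0.1 and DESeq2 1.20.0, with the TAIR10 genome; the counter and the strand of the libraries are not given in the sources used here, so overlapping and antisense genes cannot be told apart. The deposited table holds a signal, the gene counts divided by 1 size factor per library. Dividing by the step between low values gave whole reads for 100% of values within 0.001, and these recovered reads were used for depth, edgeR and DESeq2.

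Genes averaging 10 or more normalised counts over 12 libraries were tested with limma 3.58.1 (trend) in R 4.3.3 on log2(normalised count + 1), with all 4 groups in 1 fit, no covariates, two-sided tests and Benjamini-Hochberg adjustment over all 19309 genes. The limma test was also run on simulated counts with the same spread in all groups. Heat libraries spread more than control libraries here, so that run does not cover this case. Same-numbered heat and high light libraries deviated together (r = 0.147, 0.152 and 0.151, each over a limit of 0.1 set here). Heat and control libraries did not (0.068, 0.0010 and 0.0066), though heat 3 and control 1, of different numbers, gave -0.116. The labels name no pairing, and the main fit used none. A replicate block was run only as an alternative. Gene lists held 615 entries, of which 608 matched a locus. Names, positions and promoters came from the RefSeq annotation of TAIR10.1.

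The members and lists were chosen with earlier results of these data known. Apart from list members, the genes named were taken from, among genes with a symbol, the 12 largest rises and 12 largest falls, and the 8 raised genes with the widest and the 8 with the narrowest range over the heat libraries. For the first 24 the group with more reads averaged 50 or more and the groups did not overlap. List members named were up to 6 called with the largest change, up to 4 not called with the highest mean, and a set fixed by name such as HSFA1 factors, BIP3 and FAD8. AT1G59860, AT5G47600, HSC70-1, CPHSC70-1, CHL-CPN10, HSFB2A, HSFB2B, RNR1, MCM6 and LTP3 fell outside this rule and were named after their values were seen. Alternatives were edgeR 4.0.16 and DESeq2 1.42.0, other scalings, pseudocounts, filters and thresholds, a replicate block, array weights, and leaving out each library. Libraries of the combined stress entered the fit but are not described here.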

Additional observations from a re-analysis of the deposited data

How the results depend on the processing

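Counts of raised and lowered genes stayed within 1.5 times their value under every alternative tool, scaling, pseudocount, filter and replicate block that was run. The exceptions were stricter thresholds. Requiring a change of at least 1 left 2702 raised and 2919 lowered genes against control, and 2712 and 2903 against high light. An adjusted p under 0.01 left 3130 genes above high light. Leaving out 1 library gave 3784 to 5144 raised and 3816 to 4999 lowered genes against control, and 3654 to 5053 and 3828 to 5103 against high light. With a replicate block 4651 genes were raised and 4717 lowered against control, and 4610 and 4728 against high light, and it changed no call of the 12 genes whose difference from high light is printed. Of the list counts printed against high light, it moved the antenna genes above high light from 16 to 15 and the chaperonins above it from 1 to 2. The salicylic acid genes below high light went from 9 to 10. With 2 units of the heat shock element in place of 3, the share of promoters was 15.8% of all genes, 16.3% of raised genes, 16.4% of lowered genes and 28.9% of genes raised by more than 6. Over 354 genes and 19 settings no called gene reversed its direction. Of the genes named, the calls of BZIP60, ELIP1, HSF1, HSF3, LHCB1.3, LHCB3, PR1 and RBCS1A were lost under at least 1 setting that kept all libraries of the groups compared, most often with only the 6 libraries in the fit, library totals or no filter. AT3G09440, GUN5 and HSP81-3 passed by both edgeR and DESeq2, and HSFA5 and RCA by DESeq2. Other settings also gave calls that the main fit did not. FAD8, HSBP, HSFA5 and NPR1 passed with upper-quartile scaling, FAD8 and GUN5 with library totals, and HSP81-3 and PR2 with a replicate block. NPR1 passed with only the 6 libraries in the fit. With array weights AT3G09440, BAK1, CYCD3;1, FAD8, GUN5, HSBP, HSFA5, HSP81-3, ICS1, LOX2, NBR1, NPR1 and PR2 passed. The cause was not tested. Upper-quartile scaling moved the median of all genes by -0.12 and library totals by -0.083 on the log2 scale. A list of proteins with the endoplasmic reticulum retention signal was not run, since no protein table was used here. With 3 libraries in a group, small changes of genes with a wide spread in heat were not detectable.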

Other observations

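Transcripts of the mitochondrial genome, chosen after their values were seen, were higher in heat without exception. All 39 that could be tested rose, with a median of 4.42, and medians of 4.81, 4.66 and 4.1 in heat libraries 1, 2 and 3, so heat 1 was highest and heat 3 lowest. All 39 were also higher than in high light. Of all genes, 24.6% rose against control and 24.5% were higher than in high light. They took 0.0050%, 0.0134% and 0.0063% of reads in control and 0.119%, 0.109% and 0.0751% in heat. ATMG00090 was at 35.5, 49.7 and 24.8 in control and 2282, 2589.6 and 1749 in heat, a change of 5.91 ± 0.35 (adjusted p = 9.99e-07). ATMG00080 was at 11, 15 and 11.1 in control and 797, 1059 and 774 in heat, a change of 6.04 ± 0.29 (adjusted p = 2.49e-07). Libraries were made from poly(A) RNA, and a copy of much of this genome lies on chromosome 2, so reads of both may be mixed. The part of polyadenylation in the result was not tested. Of 79 transcripts of the chloroplast genome 17 were higher and 4 lower, with a median of 0.53. Neither count is a larger share than the 24.6% and 24.8% of all genes.

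Genes annotated as histones, likewise chosen after their values were seen, were lower in 35 of 42 cases and higher in 2, with a median of -1.99. Over all genes the shares were 24.8% lower and 24.6% higher. AT3G46320, annotated in the histone superfamily, was at 937, 868 and 1064 in control and 18.3, 8.08 and 44.8 in heat, a change of -5.57 ± 0.45 (adjusted p = 4.33e-06). AT1G75600, of the same superfamily, went the other way and was listed at 0 in each control library and at 4.58, 53 and 319.6 in heat. Heat 3 was its highest library. Histone genes include close copies, and reads may be divided between them.

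Of 39 microRNA precursors tested, also chosen afterwards, 21 were higher and 6 lower, beside 24.6% and 24.8% of all genes. Their median was 1.48. MIR168a (AT4G19395) was at 8.44, 12.6 and 13.7 in control and 331, 1282 and 627 in heat, a change of 5.7 ± 0.67 (adjusted p = 4.19e-05). MIR164b (AT5G01747) was at 2.53, 0.788 and 3.42 in control and 122, 214 and 157 in heat, a change of 5.73 ± 0.95 (adjusted p = 0.000424). MIR169m (AT3G26818) was at 27, 54.4 and 29.9 in control and 0, 0.898 and 0.954 in heat, a change of -4.55 ± 0.56 (adjusted p = 5.43e-05). MIR398c (AT5G14565) was at 3.38, 3.15 and 3.42 in control and 26.8, 61.1 and 156 in heat, a change of 3.91 ± 1.05 (adjusted p = 0.0082), with heat 3 highest. Mature microRNAs were not measured.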
